A study of Mus musculus with 30 samples.

Results

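The 10 genes described here encode chemokines: Ccl2, Ccl3, Ccl4, Ccl5, Ccl7, Ccl12, Cxcl2, Cxcl9, Cxcl10 and Cxcl16. They are the rows named by these symbols, 10 of 55573 in each of the normalized count tables of retinal pigment epithelium (RPE) and of bone marrow-derived macrophages (BMDMs). RNA was sequenced in 30 libraries, and each knockout line of Mertk, a receptor tyrosine kinase that phagocytes use to engulf dying cells and shed photoreceptor tips, was compared with C57BL/6 wild type (B6 WT). RPE was dislodged from the posterior eyecup of mice at postnatal day 25 (6 libraries of B6 WT, 6 of Mertk-/-V1, 3 of Mertk-/-V2 and 3 of Mertk-/-V3). BMDMs were differentiated from the marrow of adult mice in L929-conditioned medium (3 libraries of each genotype). Mertk-/-V1 mice carry a deletion of a kinase domain exon made in embryonic stem cells of another inbred strain, were backcrossed to B6 and keep a segment of that strain's chromosome 2. Mertk-/-V2 mice carry a germline excision of a floxed kinase domain exon of C57BL/6NJ origin, made with a tamoxifen-inducible Rosa26 Cre that was then bred out. Mertk-/-V3 mice were made by CRISPR/Cas9 editing of early exons in fertilized C57BL/6NJ eggs. None of the 10 genes lies on chromosome 2.

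Chemokines are small secreted proteins that draw leukocytes along a gradient by binding G protein-coupled receptors. CCL2, CCL7 and CCL12 bind CCR2 and attract monocytes. CCL3, CCL4 and CCL5 attract macrophages and T cells, CXCL2 attracts neutrophils through CXCR2, the interferon-inducible CXCL9 and CXCL10 attract T and NK cells through CXCR3, and CXCL16 is a membrane-bound ligand of CXCR6. NF-kB, AP-1 and interferon-activated factors are known to switch many of these genes on, and both macrophages and RPE cells can make CCL2.

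In GRCm38 with the GENCODE M21 annotation, all 10 are protein-coding genes of chromosome 11 or 5. Ccl2, Ccl7 and Ccl12 lie within 67.83 kb of each other (chr11:82035571-82103400), Ccl5, Ccl3 and Ccl4 within 138.906 kb (chr11:83525778-83664683), and Cxcl9 and Cxcl10 within 27.543 kb (chr5:92321347-92348889). Cxcl16 is at chr11:70453983-70459984 and Cxcl2 at chr5:90903871-90905938. Cxcl16 overlaps Zmynd15, Ccl2 overlaps Gm17268 and Cxcl10 overlaps Art3 on the opposite strand. The strand setting of the counting is not given in the sources used here, so reads of such partners cannot be told apart. Cxcl2 shares 94.6% identity over 239 nt with Cxcl3, another neutrophil attractant, so its count is uncertain where Cxcl3 is also expressed. Ccl2, Ccl7 and Ccl12 share 68.3 to 72.5% identity over at most 252 nt of one another.

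RefSeq promoter sequences (GRCm38.p6) were at hand for 5 of the 10 genes: Ccl12, Ccl3, Cxcl2, Cxcl9 and Cxcl10. The 250 bases before the start are printed for Cxcl10 and Cxcl9, the interferon-inducible ligands of CXCR3, and for Ccl12, the one gene of the BMDM result whose promoter was at hand. They run 5′ to 3′ along the gene and lie at chr5:92348890-92349139 (Cxcl10, minus strand), chr5:92328080-92328329 (Cxcl9, minus strand) and chr11:82101595-82101844 (Ccl12, plus strand). Capitals mark matches on either strand to the interferon-stimulated response element (ISRE; GAAA, 2 bases of any kind, GAAA), the NF-kB motif (GGGA, 4 bases of any kind, CC) or the AP-1 motif (TGANTCA).
Cxcl10: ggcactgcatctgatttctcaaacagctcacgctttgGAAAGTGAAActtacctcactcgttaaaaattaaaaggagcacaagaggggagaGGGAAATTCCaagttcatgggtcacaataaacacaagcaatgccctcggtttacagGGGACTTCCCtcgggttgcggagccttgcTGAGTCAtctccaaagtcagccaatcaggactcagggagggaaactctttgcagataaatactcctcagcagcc
Cxcl9: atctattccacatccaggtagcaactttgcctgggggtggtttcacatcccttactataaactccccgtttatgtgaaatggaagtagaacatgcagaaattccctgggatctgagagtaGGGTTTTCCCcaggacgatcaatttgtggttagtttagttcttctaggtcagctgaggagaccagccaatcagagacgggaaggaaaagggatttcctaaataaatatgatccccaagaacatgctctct
Ccl12: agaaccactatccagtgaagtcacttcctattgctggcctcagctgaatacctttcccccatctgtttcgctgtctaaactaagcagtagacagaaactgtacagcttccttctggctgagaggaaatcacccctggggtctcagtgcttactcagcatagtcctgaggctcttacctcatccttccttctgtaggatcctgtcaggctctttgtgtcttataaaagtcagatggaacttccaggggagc

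The Cxcl10 window held 1 ISRE match starting 213 bases before the start, 2 NF-kB matches starting 159 and 103 bases before it, and 1 AP-1 match starting 74 bases before it. The Cxcl9 window held 1 NF-kB match, the Cxcl2 window held 2 NF-kB matches that overlap each other, and the windows of Ccl12 and Ccl3 held no match to these letters. Ccl3 is not printed, though its log2 difference from B6 WT in Mertk-/-V1 RPE was 2.06, beside 1.73 for Cxcl9. Of 32841 mouse promoter windows of this length, 2.98% held the ISRE, 17.6% the NF-kB and 6.75% the AP-1 motif.

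The libraries held 14137666 to 34124049 reads in RPE and 16629659 to 25653814 in BMDMs, recovered from the deposited values. Mertk fell in the libraries labelled Mertk-/-V1 and Mertk-/-V3 (log2 fold changes of -1.46 and -2.01 in RPE, -1.61 and -1.94 in BMDMs), and in those labelled Mertk-/-V2 it stood at +0.39 (limma adjusted p = 0.954) in RPE and rose by 0.43 (limma adjusted p = 0.00129) in BMDMs. A count over the whole gene does not show whether the excised exon of Mertk-/-V2 is gone. The BMDM libraries had all 12 macrophage markers, with a summed level of 167986 to 182701 normalized counts, while their RPE markers summed to 8.97 to 42.3, with 6 of 8 at 3 reads or fewer in every library. The RPE libraries had all 8 RPE markers (137232 to 579990 normalized counts summed) together with rod (30263 to 811679), macrophage (6529 to 12385), mast cell, endothelial and fibroblast markers, so the preparation was not RPE alone. In such bulk samples, fewer cells of a type and less RNA per cell cannot be told apart.

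BMDMs from B6 WT mice contained abundant transcripts of the monocyte attractants and of Ccl3 and Ccl4, whereas in RPE only Cxcl16 stood clear of the low range. Levels between genes are compared here as normalized counts per kb of exon. In B6 WT BMDMs, Ccl2 stood highest at 6814 ± 246 (SD, n = 3), followed by Ccl7 at 4991 ± 122, Ccl3 at 4824 ± 72.4, Ccl4 at 4444 ± 189 and Ccl12 at 1023 ± 7.88. Ccl7 and Ccl3 overlapped in range, and all other neighbours in this stretch of the order did not. Cxcl16 (87.1 ± 3.85), Cxcl2 (27.8 ± 7.64), Cxcl10 (5.76 ± 2.21) and Ccl5 (2.55 ± 2.54) came next, and Cxcl9 had 0 reads in all 3 libraries. Cxcl10 overlapped Ccl5 in range and Ccl5 overlapped Cxcl9. At these depths 0 reads allow a level of up to 3 reads per library, which covers counting error only.

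In B6 WT RPE, Cxcl16 led at 116 ± 48.8 normalized counts per kb (SD, n = 6), with no overlap with Ccl12 at 14.9 ± 9.17. From Ccl12 down, each gene overlapped in range with the next in the order Ccl3 (6.73 ± 2.89), Ccl5, Cxcl10, Ccl7, Ccl4, Ccl2, Cxcl9 and Cxcl2 (1.54 ± 1.51). The tables of the tissues were normalized separately, so their levels are set side by side without a test.

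**Figure D1:**
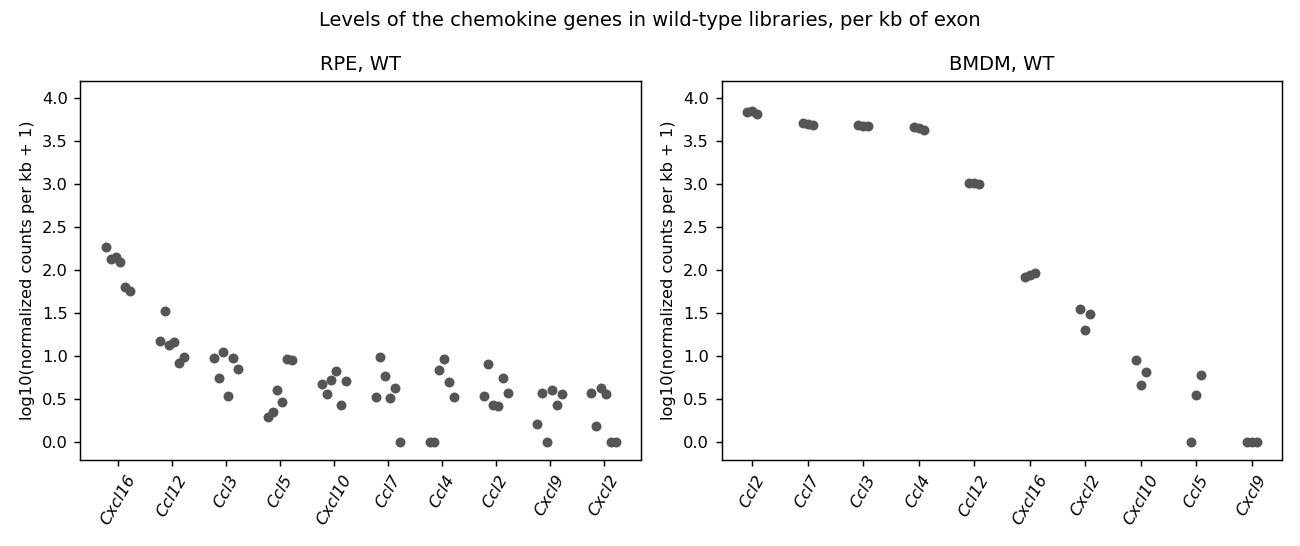
Levels of the 10 chemokine genes in B6 WT libraries as log10 of normalized counts per kb of exon plus 1, 1 point per library, for RPE (left, n = 6) and BMDMs (right, n = 3), ordered by the mean. In BMDMs 5 genes lie at or above 1023 normalized counts per kb on average, and in RPE the highest mean is that of Cxcl16 at 116.

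The first comparison asked which chemokine genes differed from B6 WT in macrophages of each knockout line. A gene was tested where its mean over the 12 BMDM libraries was at least 10 normalized counts, which 8 of the 10 genes passed (not Cxcl9 and Ccl5). It was said to pass at an adjusted p under 0.05 (limma on log2(value + 1), Benjamini-Hochberg over all 13420 genes tested), and a differentially expressed gene (DEG) also had to differ by 1.25 or more on the log2 scale. The 3 comparisons share the B6 WT libraries.

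Of the CCR2 ligands, Ccl2 and Ccl7 rose in Mertk-/-V1 and Mertk-/-V2 BMDMs, Ccl12 rose in Mertk-/-V1 BMDMs, and none of them passed in Mertk-/-V3 BMDMs. Ccl2, which encodes the main monocyte attractant of mouse and human, stood at 7843, 7980 and 7442 normalized counts in the B6 WT libraries. Its values were 10440, 11044 and 10060 in Mertk-/-V1, 10217, 10442 and 11182 in Mertk-/-V2, and 7564, 7755 and 7732 in Mertk-/-V3. Every Mertk-/-V1 and Mertk-/-V2 library was thus above every B6 WT and Mertk-/-V3 library, and the latter groups overlapped. The log2 fold change of Ccl2 against B6 WT was 0.44 ± 0.05 (SE; limma adjusted p = 0.000143) in Mertk-/-V1, which is 1.36-fold, 0.45 ± 0.05 (limma adjusted p = 0.000192) in Mertk-/-V2 and -0.01 ± 0.05 (limma adjusted p = 0.928) in Mertk-/-V3.

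Ccl7 encodes another CCR2 ligand that also mobilises monocytes from the marrow. It stood at 4102, 3982 and 3909 normalized counts in wild type libraries, 6411, 6327 and 5546 in Mertk-/-V1, then 6073, 6932 and 6666 for Mertk-/-V2, and 3861, 3831 and 3795 in Mertk-/-V3. The Mertk-/-V1 and Mertk-/-V2 libraries lay above all others, and the Mertk-/-V3 libraries just below all B6 WT libraries. The log2 fold changes of Ccl7 were 0.61 ± 0.06 (1.52-fold; limma adjusted p = 4.41e-05) in Mertk-/-V1, 0.71 ± 0.06 (1.64-fold; limma adjusted p = 2.19e-05) in Mertk-/-V2 and -0.06 ± 0.06 (limma adjusted p = 0.645) in Mertk-/-V3.

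Ccl12, a CCR2 ligand of rodents, stood at 554, 548 and 546 normalized counts in B6 WT libraries, 964, 741 and 733 in those of Mertk-/-V1, 836, 806 and 580 for Mertk-/-V2, and 592, 635 and 599 in Mertk-/-V3. All knockout libraries were above all B6 WT libraries, and 1 Mertk-/-V2 library lay below the Mertk-/-V3 libraries. Ccl12 rose in Mertk-/-V1 by 0.55 ± 0.12 (SE; limma adjusted p = 0.0184), and its log2 fold changes of 0.41 ± 0.12 (limma adjusted p = 0.074) in Mertk-/-V2 and 0.15 ± 0.12 (limma adjusted p = 0.605) in Mertk-/-V3 did not pass. The call in Mertk-/-V1 was lost when either of 2 B6 WT libraries or the highest Mertk-/-V1 library was left out (limma adjusted p = 0.0732, 0.0698 and 0.0768).

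In all, 3 of the 8 genes tested rose and 0 fell in Mertk-/-V1 BMDMs, where 7.07% of all genes tested passed and 3.92% rose. In Mertk-/-V2, 2 rose and 0 fell, against 4.61% of all genes passing and 2.24% rising. In Mertk-/-V3 no chemokine gene passed, against 1.17% of all genes, with 1 of 8 (Cxcl16) at an unadjusted p under 0.05 by limma (15.9% of all genes), 0 passing by edgeR (1.28%) and 1 by DESeq2 (3.33% of all genes with an adjusted p). None reached the fold of a DEG in any of the 3 comparisons, where 0.425%, 0.253% and 0.156% of all genes did. Groups without overlap were seen for 4 genes higher in Mertk-/-V1 (15.4% of all genes tested), 3 higher in Mertk-/-V2 (10.1%), and 2 higher (12.2%) and 2 lower (13.2%) in Mertk-/-V3. The median log2 fold change of the 8 genes was 0.28, 0.31 and 0.01 in the order of the lines, beside -0.00473, -0.000957 and 0.00484 over all genes tested.

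**Figure D2:**
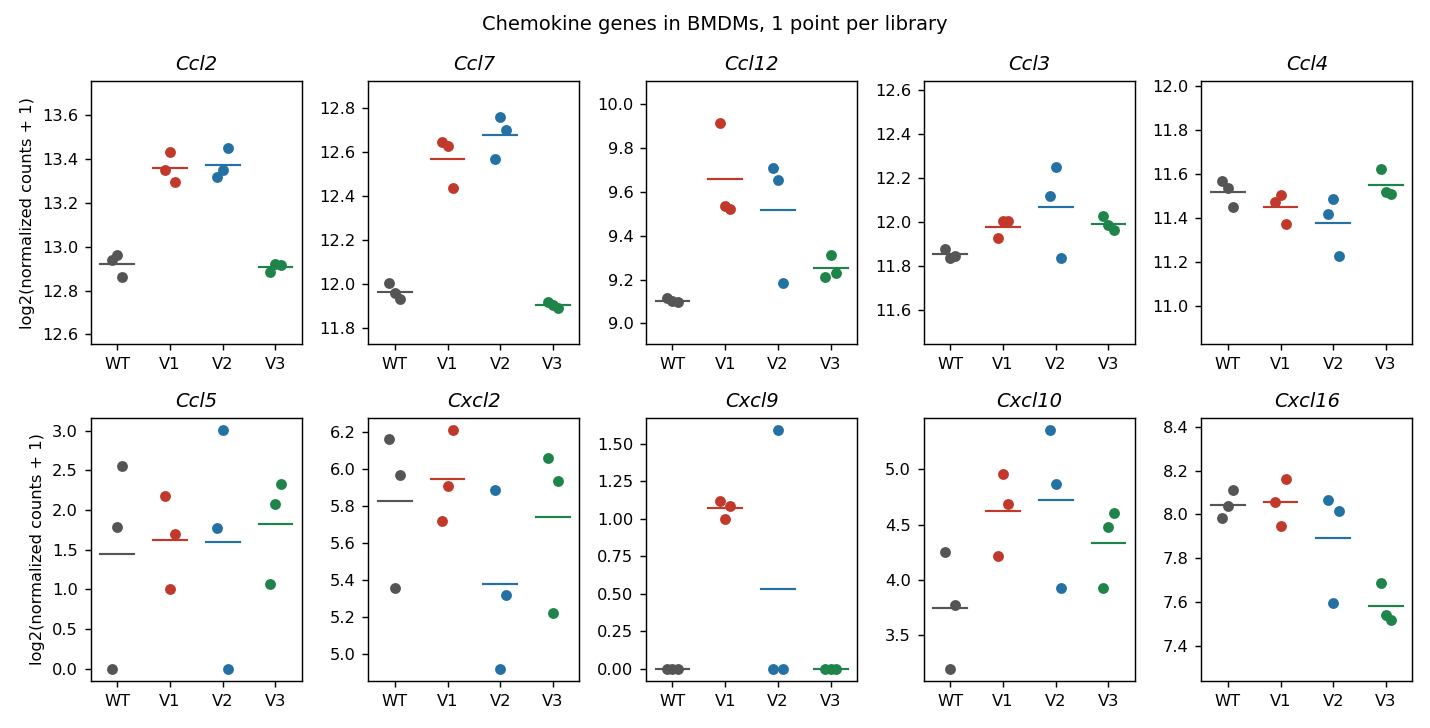
Levels of the 10 chemokine genes in BMDMs as log2(normalized counts + 1), 1 point per library (n = 3 per genotype), with a line at each mean and a scale of its own for each gene. For Ccl2 and Ccl7 the Mertk-/-V1 and Mertk-/-V2 libraries lie above all B6 WT and Mertk-/-V3 libraries.

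Because the knockout lines parted from each other, they were also compared directly, a comparison added after the values were seen. Ccl2 was higher in Mertk-/-V1 than in Mertk-/-V3 BMDMs by 0.45 ± 0.05 on the log2 scale (SE; limma adjusted p = 9.16e-05) and higher in Mertk-/-V2 than in Mertk-/-V3 by 0.47 ± 0.05 (limma adjusted p = 0.00012). Ccl7 was higher by 0.67 ± 0.06 (limma adjusted p = 1.39e-05) and 0.77 ± 0.06 (limma adjusted p = 4.49e-06) in the same comparisons. Cxcl16 was higher in Mertk-/-V1 than in Mertk-/-V3 by 0.47 ± 0.12 (limma adjusted p = 0.0471), a call that was lost when any 1 of these 6 libraries was left out (limma adjusted p = 0.0922 to 0.157). That made 3 of 8 genes in the first (3.05% of all genes tested passed, 0.373% as DEGs) and 2 of 8 in the second (3.16% and 0.246%). Between Mertk-/-V1 and Mertk-/-V2 no chemokine gene passed (limma; 0 of 8 at an unadjusted p under 0.05 beside 7.47% of all genes, edgeR and DESeq2 0 of 8), beside 0.365% of all genes (0.134% DEGs). Set against the averaged other knockouts, as planned, Mertk-/-V1 had Ccl7 at 0.28 ± 0.05 (limma adjusted p = 0.0112) and Ccl2 at 0.22 ± 0.04 (limma adjusted p = 0.0161), so 2 of 8 passed (0.991% of all genes, with 0.194% DEGs). That average is taken over lines that differed in both genes, and Mertk-/-V1 overlapped the pooled libraries for all 8 genes.

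The immediate early genes, which cells switch on within minutes of handling or stimulation, divided the BMDM libraries in the same way by their summed level, though not gene by gene. Their summed level over 10 genes was 17643 to 19571 normalized counts in wild type and 16484 to 20257 in Mertk-/-V3, but 10865 to 11972 in Mertk-/-V1 and 11967 to 12438 in Mertk-/-V2. In Mertk-/-V1, 6 of the 10 fell and 1 rose, and in Mertk-/-V2, 5 fell and 1 rose, while 0 passed in Mertk-/-V3. Fos, chosen after its values were seen, was at 2377 to 3038 normalized counts in wild type, 1829 to 3025 in Mertk-/-V3, 389 to 490 in Mertk-/-V1 and 476 to 520 in Mertk-/-V2. Of the 12 macrophage markers 1 fell and 0 rose in Mertk-/-V1, 0 passed in Mertk-/-V2 and 1 fell in Mertk-/-V3. The dendritic cell list was at 86.9 to 145 normalized counts summed in Mertk-/-V1, 60.5 to 99.5 in Mertk-/-V2, 77.9 to 84.2 in Mertk-/-V3 and 51.4 to 62.5 in B6 WT. Most of that sum was Itgax, named after its values were seen, with a mean of 62.4, while the others of the list averaged 1.16 to 8.37. Itgax alone of that list passed in Mertk-/-V1, at 1.43 ± 0.23 (SE; limma adjusted p = 0.00336). The sources used here do not say whether the cultures of all genotypes were grown and harvested together. The part of these lists in the chemokine result was not tested.

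**Figure D3:**
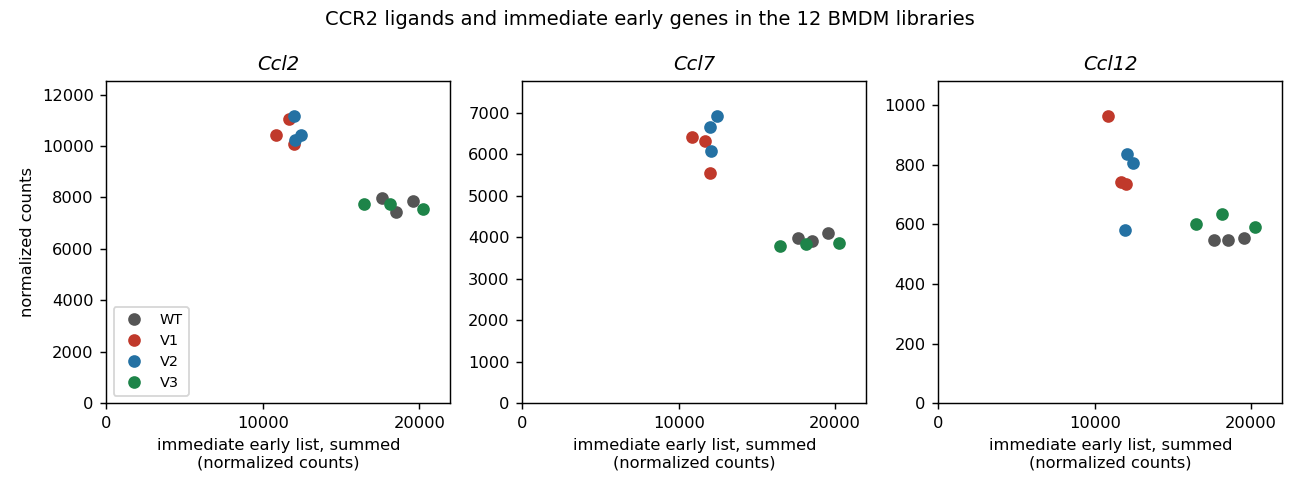
Normalized counts of Ccl2, Ccl7 and Ccl12 (y axes, from 0) against the summed level of 10 immediate early genes (x axes, from 0) in the 12 BMDM libraries, coloured by genotype. The Mertk-/-V1 and Mertk-/-V2 libraries, with sums of 10865 to 12438, lie to the left of the B6 WT and Mertk-/-V3 libraries, with sums of 16484 to 20257.

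None of the other chemokine genes passed against B6 WT in BMDMs. Ccl3, whose product attracts macrophages and T cells, ranged from 3650 to 3757 normalized counts in wild type, 3891 to 4104 in Mertk-/-V1, 3651 to 4873 in Mertk-/-V2 and 3987 to 4178 in Mertk-/-V3. The Mertk-/-V1 and Mertk-/-V3 libraries were above all B6 WT libraries, yet the log2 fold changes of 0.13, 0.22 and 0.14 did not pass (limma adjusted p = 0.349, 0.119 and 0.393). Ccl4, its neighbour and close relative, ranged from 2396 to 3149 normalized counts over all 12 libraries, with log2 fold changes of -0.07, -0.14 and 0.03 (limma adjusted p = 0.557, 0.223 and 0.855).

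Cxcl16 was at 252, 262 and 275 normalized counts in B6 WT BMDMs, 265, 246 and 286 in Mertk-/-V1, 267, 193 and 257 in Mertk-/-V2, and 205, 185 and 182 in Mertk-/-V3. All 3 Mertk-/-V3 libraries were below all B6 WT libraries. The log2 fold change was -0.46 ± 0.12 (SE; limma adjusted p = 0.075) and did not pass, while DESeq2 gave an adjusted p of 0.0266. Cxcl2, at 29.2 to 73.1 normalized counts, and Cxcl10, at 8.15 to 40.0, overlapped between B6 WT and each knockout, and neither passed. Cxcl10 had log2 fold changes of 0.88, 0.98 and 0.59 in the 3 knockouts (limma adjusted p = 0.188, 0.162 and 0.493). Ccl5 stayed at or below 7.06 normalized counts and Cxcl9 at or below 2.02 in every BMDM library, and neither was tested.

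The second comparison asked the same of RPE, in which 6 of the 10 genes reached a mean of 10 normalized counts and were tested among 18832 genes. Ccl2, Ccl4, Ccl5 and Ccl7 did not. Cxcl2 and Ccl3 passed this filter through 1 Mertk-/-V1 library, and Cxcl10, Cxcl9 and Ccl12 through knockout libraries, so counts over the genes that passed it do not stand for all 10 and lean towards higher values in the knockouts. No chemokine gene passed in any of the 3 comparisons with B6 WT by limma, where 0.388% of all genes passed in Mertk-/-V1, and 0.069% in each of Mertk-/-V2 and Mertk-/-V3, while 0.149%, 0.0584% and 0.0637% were DEGs. At an unadjusted p under 0.05 there were 3 of the 6 in Mertk-/-V1 (Cxcl10, Ccl3 and Cxcl9), 1 in Mertk-/-V2 (Cxcl9) and 0 in Mertk-/-V3, beside 6.81%, 5.47% and 11.1% of all genes tested. By edgeR 1 passed in Mertk-/-V1 (Cxcl10; 0.398% of all genes) and by DESeq2 2 (Cxcl10 and Ccl3; 0.812% of all genes with an adjusted p), and neither tool called any in Mertk-/-V2 or Mertk-/-V3.

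Cxcl10 had the largest difference that several libraries shared. Its lowest, median and highest values were 3.93, 8.91 and 13.0 normalized counts in B6 WT RPE (n = 6) and 3.62, 82.7 and 118 in Mertk-/-V1 (n = 6). It stood at 20.1, 23.8 and 24.1 in Mertk-/-V2 and 24.5, 19.95 and 20.1 in Mertk-/-V3. All Mertk-/-V2 and Mertk-/-V3 libraries and 5 of 6 Mertk-/-V1 libraries were above every B6 WT library, and the Mertk-/-V1 replicate 4 was below them all. These are small counts, 3 to 10 reads per B6 WT library against 31 to 137 in the 5 high Mertk-/-V1 libraries, while the Mertk-/-V2 libraries held 25 to 28.

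On the log2(value + 1) scale Cxcl10 differed from B6 WT by 2.40 ± 0.62 in Mertk-/-V1 (SE; limma adjusted p = 0.154), 1.41 ± 0.76 in Mertk-/-V2 (limma adjusted p = 0.938) and 1.33 ± 0.76 in Mertk-/-V3 (limma adjusted p = 0.476). On the recovered reads, edgeR gave a log2 fold change of 3.05 (adjusted p = 0.0171) and DESeq2 one of 3.08 (adjusted p = 8.56e-06) for Mertk-/-V1. Without replicate 4 of Mertk-/-V1, limma gave 3.07 (adjusted p = 0.000586), so this library decided the call. Within replicates 1 to 3 the difference was 2.98 (limma adjusted p = 0.0777) and within replicates 4 to 6 it was 1.83 and did not pass by limma.

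Cxcl9, which like Cxcl10 is induced by interferon and binds CXCR3, had a lowest, median and highest value of 0, 6.55 and 9.25 normalized counts in B6 WT RPE and of 8.02, 18.4 and 24.7 in Mertk-/-V1. It stood at 11.3, 16.1 and 28.4 in Mertk-/-V2 and 3.35, 15.0 and 18.5 in Mertk-/-V3. The Mertk-/-V2 libraries were above all B6 WT libraries, 4 of 6 Mertk-/-V1 libraries were, and 2 of 3 Mertk-/-V3 libraries were. The differences of 1.73 ± 0.56, 1.89 ± 0.69 and 1.16 ± 0.69 (SE) did not pass (limma adjusted p = 0.387, 0.788 and 0.49). Groups without overlap were seen for 0 of the 6 genes in Mertk-/-V1 (0.568% of all genes were higher without overlap), for 2 in Mertk-/-V2, Cxcl9 and Cxcl10 (3.72%), and for 1 in Mertk-/-V3, Cxcl10 (2.75%).

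**Figure D4:**
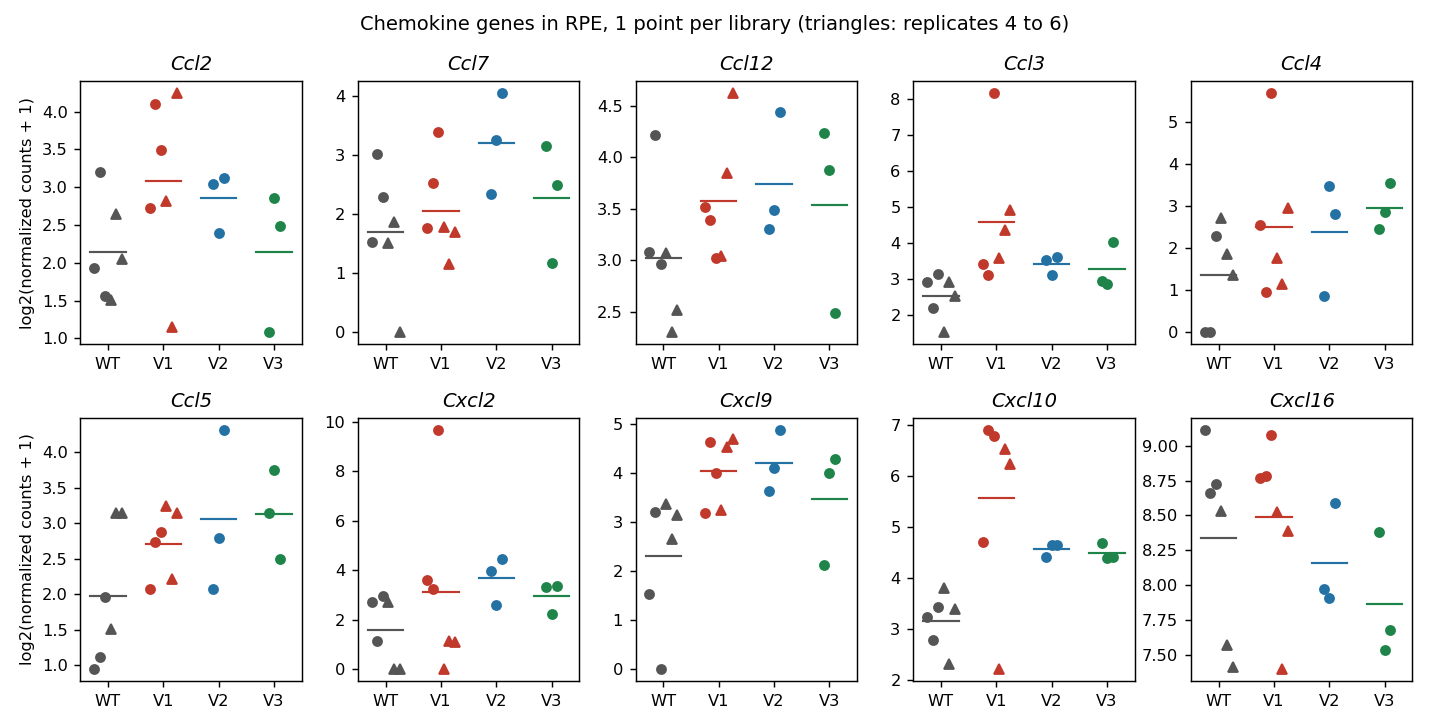
Levels of the 10 chemokine genes in RPE as log2(normalized counts + 1), 1 point per library (6 B6 WT, 6 Mertk-/-V1, 3 Mertk-/-V2, 3 Mertk-/-V3), with a line at each mean, triangles for replicates 4 to 6 and a scale of its own for each gene. For Cxcl10, 5 of 6 Mertk-/-V1 libraries lie above all B6 WT libraries, and 1 Mertk-/-V1 library stands far above the rest for Ccl3, Ccl4 and Cxcl2.

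Of the fixed list of 15 inducers and regulators of chemokine genes, 13 were tested in RPE, and in Mertk-/-V1 2 rose and 0 fell. Stat2, a transcription factor of the interferon response, was at 1279 to 1543 normalized counts in wild type and 1756 to 2133 in Mertk-/-V1, a log2 fold change of 0.46 ± 0.09 (limma adjusted p = 0.0275). All Mertk-/-V1 libraries were above all B6 WT libraries. In Mertk-/-V2 and Mertk-/-V3, 0 of the 13 passed. Stat2 did not reach the fold of a DEG, so it is named here after its values were seen.

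Markers of other cells were read beside these results. Of the 12 macrophage and microglia markers, 3 rose and 0 fell in Mertk-/-V1 RPE: Fcer1g by 0.98, C1qb by 1.02 and C1qa by 1.04 on the log2 scale (limma adjusted p = 0.00104, 0.00977 and 0.0346). Summed, the list ranged from 7643 to 12385 normalized counts for wild type and from 6529 to 11455 for Mertk-/-V1. For the other knockouts the ranges were 9260 to 11248 (Mertk-/-V2) and 6530 to 12105 (Mertk-/-V3). These sums mostly follow Csf1r, named after its values were seen, with a mean of 7173 over the RPE libraries. The means of C1qa, C1qb and Fcer1g were 368, 359 and 96.6. Csf1r averaged 7767 for B6 WT and 6032 for Mertk-/-V1, with overlapping ranges. The sums therefore say little about the 3 markers that rose. T and NK cell markers, those of the cells that CXCL9 and CXCL10 attract, summed to 16.5 to 35.2 in B6 WT, 23.1 to 42.3 in Mertk-/-V1, 23.4 to 38.2 in Mertk-/-V2 and 12.3 to 26.2 in Mertk-/-V3, with Cd3d at 3 reads or fewer in every B6 WT and Mertk-/-V1 library. None of that list could be tested. The immediate early genes summed to 3508 to 8308 in B6 WT RPE and 4427 to 13062 in Mertk-/-V1, where replicates 1 to 3 were at 10148 to 13062 and the same replicates of B6 WT at 5813 to 8308. All 10 had positive differences in Mertk-/-V1 and 0 passed, the nearest being Atf3 at 1.72 and Fosb at 1.83 (limma adjusted p = 0.0611 and 0.0729), which were named after their values were seen. The part of these lists in the RPE results was not tested beyond the covariate fits that follow. With the macrophage markers as a covariate, the Cxcl10 difference in Mertk-/-V1 was 2.56 ± 1.36 (SE; limma adjusted p = 0.891), beside 2.40 ± 0.62 without it. The SE of Cxcl9 in the same comparison likewise went from 0.56 to 1.24 with this covariate. With SEs so large, the fit cannot tell the macrophage markers from the genotype, and nothing is drawn from it. With the rod markers the Cxcl10 difference was 2.39 ± 0.62 (SE; limma adjusted p = 0.0626).

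Ccl3 had a lowest, median and highest value of 1.85, 5.62 and 7.78 normalized counts in B6 WT RPE and of 7.58, 15.2 and 288 in Mertk-/-V1, with 7.64 to 11.2 in Mertk-/-V2 and 6.24 to 15.4 in Mertk-/-V3. In Mertk-/-V1, 5 of 6 libraries were above every B6 WT library, and replicates 4 to 6 alone were at 10.9, 19.4 and 29.2. Its difference in Mertk-/-V1 was 2.06 ± 0.66 (SE; limma adjusted p = 0.362) and fell to 1.34 without replicate 3 (limma adjusted p = 0.201), while within replicates 4 to 6 it was 1.97 (limma adjusted p = 0.562). DESeq2 gave 3.53 (adjusted p = 0.00229) and edgeR gave 3.48 (adjusted p = 0.151). Cxcl2 had 0, 3.36 and 6.80 normalized counts in wild type and 0, 4.87 and 824 in Mertk-/-V1. Its difference was 1.55 ± 1.23 (limma adjusted p = 0.855), and 0.23 without replicate 3 (limma adjusted p = 0.935).

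The highest value of both genes came from 1 library, replicate 3 of Mertk-/-V1, which also held the highest Ccl4 in RPE, 50.6 normalized counts against 0 to 10.8 in the 17 others. Il1b, encoding the cytokine interleukin-1 beta, was at 764 normalized counts there and at 2.43 to 26.7 in the others, and Cxcl3 was at 122 there. The neutrophil markers summed to 2793 in that library, the highest of the RPE libraries, while B6 WT reached 1348. Over the RPE libraries Ltf had a mean of 541 normalized counts, beside 78.9 for S100a9 and 25.6 for S100a8. Their highest values in any RPE library were 1671, 678 and 359 in that order. The sum of 2793 is above the highest Ltf, so other markers of the list added to it. Il1b, Cxcl3 and these 3 markers were chosen after their values were seen, and the part of the neutrophil markers in this library's chemokine values was not tested.

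Cxcl16 was the best measured of the chemokine genes in RPE, with 108 to 682 reads per library. Its lowest, median and highest values were 170, 387 and 554 normalized counts in wild type and 168, 401 and 539 in Mertk-/-V1. It stood at 250, 239 and 384 in Mertk-/-V2 and 332, 185 and 204 in Mertk-/-V3, within the range of all B6 WT libraries. These are replicates 1 to 3, and every one was below B6 WT replicates 1 to 3, at 404 to 554 normalized counts. With all libraries, the differences of 0.15 ± 0.32, -0.18 ± 0.39 and -0.47 ± 0.39 (SE) did not pass (limma adjusted p = 0.934, 0.999 and 0.594). Among replicates 1 to 3 alone, Cxcl16 was lower in Mertk-/-V3 than in B6 WT on the log2 scale, at -0.97 ± 0.24 (limma adjusted p = 0.0211). In Mertk-/-V2 it was at -0.68 ± 0.24 and did not pass (limma adjusted p = 0.177). It was higher in Mertk-/-V1 than in the mean of the other knockouts by 0.87 ± 0.21 (limma adjusted p = 0.0278). The shares of all genes that passed in these fits are not given here.

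Ccl12 was at 3.93 to 17.6 normalized counts in B6 WT RPE and 7.11 to 23.6 in Mertk-/-V1, with differences of 0.55, 0.72 and 0.51 in the 3 knockouts (limma adjusted p = 0.839, 0.954 and 0.631). The 4 untested genes had few reads. Ccl2 reached at most 17.99 normalized counts and Ccl5 18.9, Ccl7 15.5, and Ccl4 50.6 in the library named above. With Mertk-/-V1 set against the averaged other knockouts, 0 of 6 genes passed by limma, edgeR and DESeq2 (0 at an unadjusted p under 0.05 by limma, where 9.56% of all genes were), beside 0.207% of all genes (0.0956% DEGs), with Ccl3 at 1.24 ± 0.66 and Cxcl10 at 1.03 ± 0.62 (SE; limma adjusted p = 0.55 and 0.59). Since Mertk-/-V2 and Mertk-/-V3 have replicates 1 to 3 only, the same contrast was taken within these. Cxcl10 was then a DEG, at 1.60 ± 0.43 (SE; limma adjusted p = 0.0384). This fit leaves out replicate 4 of Mertk-/-V1, the library with the lowest Cxcl10 of that line, at 3.62 normalized counts. An unadjusted p of 0.00344 by limma was enough to pass there. The share of all genes that passed in it is not given here, so the call cannot be weighed against it.

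**Figure D5:**
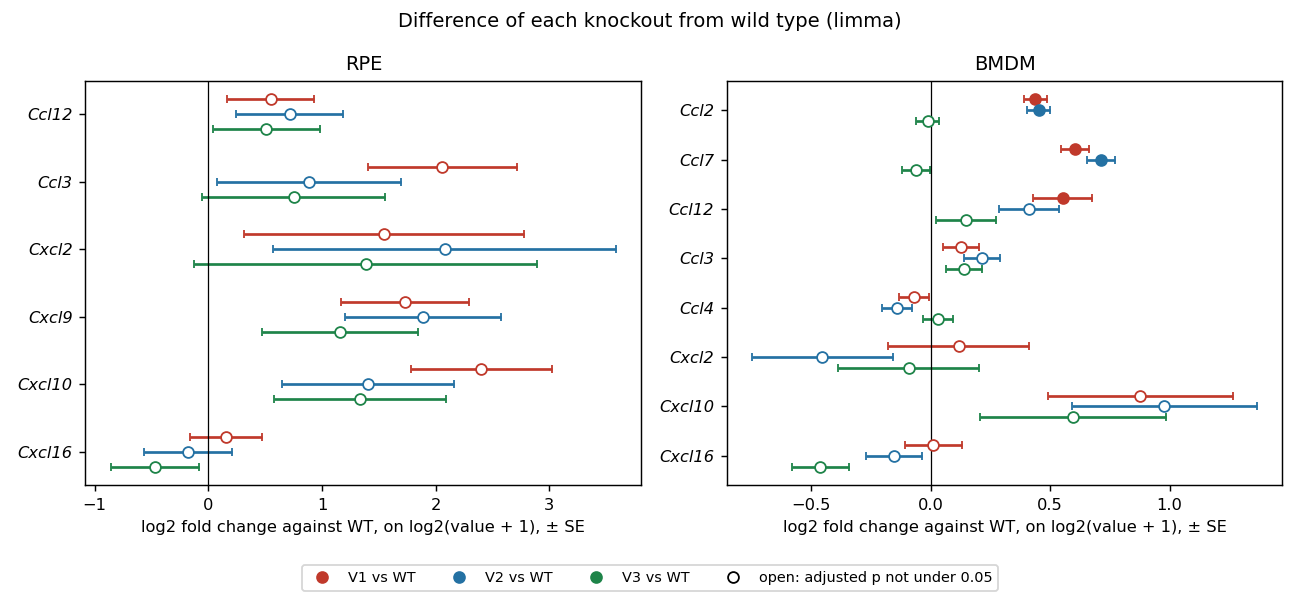
Log2 fold change against B6 WT with its SE on the log2(normalized counts + 1) scale, for the chemokine genes tested in RPE (left, 6 genes) and BMDMs (right, 8 genes), by knockout, with filled points where the adjusted p was under 0.05. Filled points appear only in BMDMs, for Ccl2 and Ccl7 in Mertk-/-V1 and Mertk-/-V2 and for Ccl12 in Mertk-/-V1.

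Whether a knockout's effect differed between RPE and BMDMs was tested for the 5 chemokine genes that passed the filter in both tissues (Ccl3, Ccl12, Cxcl2, Cxcl10 and Cxcl16). None passed by limma or edgeR for any knockout, beside 0.376%, 0.12% and 0.04% of 12513 genes for the 3 lines in order, and 1 of 5 was at an unadjusted p under 0.05 by limma, beside 8.79% of all genes for that line (Ccl3 in Mertk-/-V1, a difference of 1.93 ± 0.91, limma adjusted p = 0.547). The interval of the difference was wide, since the SE was 0.45 to 1.87 on the log2 scale. Ccl2 and Ccl7, which rose in BMDMs, were too low in RPE for this test. Ccl3 and Cxcl2 entered it through 1 high Mertk-/-V1 RPE library, so 1 of 5 cannot be weighed against the 8.79%.

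The RPE libraries with replicate numbers 1 to 3 and 4 to 6 of B6 WT and Mertk-/-V1 differed in 40.6% of all genes tested at an adjusted p under 0.05, and 9.24% of all genes were DEGs between them. Of the 6 chemokine genes, Cxcl16 was higher in replicates 1 to 3 by 0.88 ± 0.23 (SE; limma adjusted p = 0.012). Cxcl2 was higher by 3.07 ± 1.11 (limma adjusted p = 0.0444) and was the 1 DEG among them, and it did not pass when any of 9 libraries was left out. The 8 rod markers tested were all lower in replicates 1 to 3. Among the other lists, the largest DEGs were Ppbp (2.17), Cxcl14 (-1.80) and Pf4 (1.39) of the other ligands, Ackr1 (-2.35) of the receptors and Tnf (2.07) of the inducers, as log2 differences of replicates 1 to 3 from 4 to 6.

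Of the 28 other chemokine ligands, 9 were tested in BMDMs and 13 in RPE, and 0 passed in any comparison of a knockout with B6 WT by limma. Of the 23 chemokine receptors, 9 were tested in BMDMs. Ccr1, a receptor of CCL3, CCL5 and CCL7, fell by 0.45 in Mertk-/-V1 BMDMs (limma adjusted p = 8.86e-05) and by 0.22 in Mertk-/-V3 (limma adjusted p = 0.035). Ccr3, at 35.0 to 58.6 normalized counts in wild type, 82.2 to 96.0 in Mertk-/-V1 and 96.1 to 102 in Mertk-/-V3, rose by 1.04 ± 0.25 and 1.23 ± 0.25 (limma adjusted p = 0.0271 and 0.035). No receptor passed in Mertk-/-V2 or in RPE of any knockout. Among the 12 inducers tested in BMDMs, Relb, an NF-kB subunit, rose by 0.58 ± 0.10 in Mertk-/-V1 (limma adjusted p = 0.00364). Tnfaip3, an inhibitor of NF-kB, rose by 0.37 ± 0.07 in Mertk-/-V1 (limma adjusted p = 0.00602) and 0.26 ± 0.07 in Mertk-/-V2 (limma adjusted p = 0.0442), and 0 of the 12 passed in Mertk-/-V3. None of these was a DEG, so they are named after their values were seen.

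By the fixed rule, the genes whose levels ran most like Ccl2 over the 12 BMDM libraries were Il20rb (Pearson r = 0.98), Ccl7 (r = 0.98) and Mapk6 (r = 0.97), and those most like Ccl3 were Lgals9, Man2b2 and Ogfr (r = 0.94, 0.89 and 0.87). For Cxcl10, which had few reads in BMDMs, they were Gm27194, Gm4951 and Dnmt3aos (r = 0.90, 0.89 and 0.88). Over the 18 RPE libraries, the genes most like Cxcl10 were Ifit1, Ifit2 and Mx1 (r = 0.80, 0.80 and 0.79), which are interferon-induced, and those most like Ccl3 were Acod1, Lilrb4a and Lcp2 (r = 0.87, 0.82 and 0.82). These are correlations of log2(value + 1) across libraries that share genotype groups and, for Ccl3, the 1 high library, and they describe likeness only. Cxcl9 and Cxcl10 ran together over the RPE libraries at r = 0.57.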

How the data were processed

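Read trimming by the authors used btrim, alignment to GRCm38 used STAR, and counts were normalized with DESeq2. The read counter, its strand setting and the tool versions are not given in the sources used here. The deposited signal of each gene is its count divided by a size factor of the library, and 0 sample columns were left over. Dividing by the smallest value above 0 recovered the reads of every library (100% whole within 0.01). Groups and replicate numbers follow the sample labels. The genes, lists, tests and alternatives were chosen with earlier results of these data known.

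Each tissue was fitted with limma 3.58.1 in R 4.3.3 (lmFit and trended eBayes) on log2(value + 1), all its libraries in one model. Genes averaging 10 or more were tested, and p-values were adjusted by Benjamini-Hochberg over all of them. DEGs passed 0.05 after adjustment and differed by 1.25 or more on the log2 scale. Fold changes on this scale understate those of genes with few reads. edgeR 4.0.16 (TMM, quasi-likelihood) and DESeq2 1.42.0 on the recovered reads, other pseudocounts, filters, weights, covariates and leaving out each library were alternatives. The scripts were tested on simulated data. Identifiers matched GENCODE M21 for 55480 of 55573 genes, and shared sequence was measured with BLAST 2.17.0.

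All 10 genes are named, with Mertk, genes of the other lists that were DEGs (at most 3 per list and comparison) and the 3 genes most like Ccl2, Ccl3 and Cxcl10. Other genes are said to be chosen after their values were seen. The labels call the samples biological replicates, and no 2 libraries were alike within sampling noise. Some items are not reported here.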

Additional observations from a re-analysis of the deposited data

Results flagged for a closer look

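In RPE, 20 groups of 6 libraries (each chemokine gene in B6 WT and in Mertk-/-V1) were searched for 1 library far from the rest on the log2 scale, and chance alone flags about 1 in 20 such groups. The gap of the farthest library over the range of its group was 0.642 for Ccl3 and 0.627 for Cxcl2 in Mertk-/-V1, and both times the library was replicate 3, at 288 and 824 normalized counts.

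In BMDMs the differences from B6 WT were unequal between the knockout lines, whose libraries also differed in their immediate early genes (10865 to 12438 normalized counts summed in Mertk-/-V1 and Mertk-/-V2, 16484 to 20257 in Mertk-/-V3), and the part of these in the result was not tested. Ccl7 differed between Mertk-/-V1 and Mertk-/-V3 by 0.67 and between Mertk-/-V2 and Mertk-/-V3 by 0.77 on the log2 scale, and Ccl2 by 0.45 and 0.47, with 3 of 3 libraries higher each time. Cxcl16 was 0.47 higher in Mertk-/-V1 than in Mertk-/-V3. The tests were direct contrasts in limma, chosen after the values were seen.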

How the results depend on the processing

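Results for Ccl2 and Ccl7 in Mertk-/-V1 and Mertk-/-V2 BMDMs passed under every alternative run. The thresholds of a DEG left 0 chemokine genes in each comparison of genotypes. Without the fold threshold there were 3 in Mertk-/-V1, 2 in Mertk-/-V2, 2 in Mertk-/-V1 against the other knockouts, 3 in Mertk-/-V1 against Mertk-/-V3 and 2 in Mertk-/-V2 against Mertk-/-V3 BMDMs, and 2 between the RPE replicate sets. In Mertk-/-V1 RPE, edgeR gave 1 DEG and DESeq2 2, the same numbers as at an adjusted p alone. Array quality weights gave 1 DEG each in RPE of Mertk-/-V2 and of Mertk-/-V3, and at an adjusted p alone 1 and 4, with 1 in Mertk-/-V1 against the other knockouts and, in BMDMs, 4 for Mertk-/-V2 and 1 for Mertk-/-V3. For Mertk-/-V3 BMDMs, fitting only the groups compared gave 2 and DESeq2 1 at an adjusted p alone. With a pseudocount of 5, the RPE replicate sets had 0 DEGs and 1 gene at an adjusted p alone. Replicates 1 to 3 alone gave 1 gene in Mertk-/-V3 RPE, and in Mertk-/-V1 against the other knockouts 1 DEG (Cxcl10) and 2 at an adjusted p alone (Cxcl10 and Cxcl16). With the weights, an unadjusted p of 0.00103 by limma was enough for Cxcl9 to pass in Mertk-/-V2 RPE. The shares of all genes passing with weights, blocks, set terms, fewer groups or fewer libraries are not given here. Counts under those settings therefore cannot be read as particular to the chemokine genes. Where no construction shows it, the cause was not tested.

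The replicate block and the term for the replicate sets each gave 1 gene (Cxcl16) in Mertk-/-V3 RPE and 1 in Mertk-/-V1 against the other knockouts, where the fit without a block gave 0. Same-numbered libraries deviated together at r over 0.1 in 13 of 21 pairs of groups in RPE and 4 of 18 in BMDMs. Their median r in RPE was 0.151, beside -0.00338 for libraries of different numbers, and in BMDMs it was -0.0929 beside 0.0422. The labels do not say that the numbers pair the samples, and the main fits did not pair them, although in RPE same-numbered libraries were somewhat more alike.

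Leaving out each library in turn, Mertk-/-V1 RPE had 0 to 1 DEGs and 0 to 1 genes at an adjusted p alone (1 without Mertk-/-V1 replicate 4). Mertk-/-V2 BMDMs had 0 to 1 DEGs and 2 to 5 genes at an adjusted p alone, and Mertk-/-V2 against Mertk-/-V3 2 to 4, each with the highest count without Mertk-/-V2 replicate 3. Mertk-/-V1 against the other knockouts in BMDMs had 0 to 2, with 0 without Mertk-/-V1 replicate 1 or 2. The RPE replicate sets had 0 to 1 DEGs and 1 to 2 at an adjusted p alone. Of the values of single genes, 895 kept their side of the threshold, 22 lost it and 7 gained it, and under the other settings 844, 3 and 27 did so. None reversed.

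Chemokine genes in RPE other than Cxcl16 rested on few reads in most libraries, 3 to 10 per B6 WT library for Cxcl10, where a read more or less moves the value.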

Other observations

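Ifnb1, which encodes interferon beta and belongs to the list of inducers, fell below the filter in RPE and was looked at after its values were seen. It had 18, 7 and 24 reads in the 3 Mertk-/-V2 RPE libraries (14.5, 5.94 and 20.6 normalized counts), 0 in all 6 B6 WT libraries, and at most 1 read in any Mertk-/-V1 or Mertk-/-V3 library. All 3 Mertk-/-V2 libraries were thus above all others. Without the filter on low values, limma gave an adjusted p of 2.94e-05 for Mertk-/-V2 against B6 WT. BMDMs of the same line had 0 reads of it in all 3 libraries. In these 3 RPE libraries Cxcl9 was at 11.3 to 28.4 and Cxcl10 at 20.1 to 24.1 normalized counts. Cxcl9 was at 3.35 to 18.5 and Cxcl10 at 19.95 to 24.5 in Mertk-/-V3. For Mertk-/-V1 the ranges were 8.02 to 24.7 and 3.62 to 118. The part of Ifnb1 in these values was not tested.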
